A study of Mus musculus with 4 samples.

Results

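FGF19-only peaks at single-gene promoters are the SHP binding regions that were called in the FGF19-treated liver, shared no base with any region called in the vehicle-treated liver, and sat at the start of a gene without a protein-coding neighbour starting on the opposite strand. A peak was a member when it lay on chromosomes 1 to 19 or X, when its centre was within 1 kb of an annotated transcription start site (TSS), and when protein-coding starts on both strands were not present within 1 kb of the centre. The members were thus chosen by the measured peak calls of both groups. There were 1835 members among the 3155 peaks of the FGF19 list, and 4663 peaks in both lists together. Of the 3148 FGF19 peaks on these chromosomes, 2461 were FGF19-only and 2094 of those were at promoters. The members made up 87.6% of these 2094 (95% interval 86.2 to 89.0), and the other 259 were at divergent promoters.

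Male wildtype C57BL/6 mice aged 8 to 12 weeks were fasted for 12 h and given a tail vein injection of vehicle or of FGF19 (1 mg/kg), and livers were taken 2 h later. SHP was precipitated from liver chromatin with the antibody sc-30169. ChIP and input samples from 3 mice were pooled in each group, which gave 1 SHP ChIP library and 1 input library per group. There is therefore no replicate error, and no test of FGF19 against vehicle is given. The FGF19 ChIP library held 13444078 tags after duplicate removal and the vehicle ChIP library 15473647. The vehicle list was the shorter, with 1508 peaks. The peak lists give no vehicle signal at positions where no vehicle peak was called, so FGF19-only means absent from the vehicle list, not absence of SHP in the vehicle liver. Whole liver was used, and a larger share of occupied alleles cannot be told apart from more of a cell type in which the site is occupied.

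SHP (small heterodimer partner, encoded by Nr0b2) is an orphan nuclear receptor that has a ligand-binding domain but no DNA-binding domain. It reaches chromatin through other proteins and is known in liver as a co-repressor that restrains bile acid synthesis. FGF19, whose mouse counterpart is FGF15, is a hormone of the small intestine that is released after a meal and acts on hepatocytes through FGFR4 and beta-Klotho. Many mammalian promoters lie in CpG islands, stretches rich in G, C and the CpG dinucleotide, and are bound by factors such as SP1, NRF1, NF-Y and YY1 close to the TSS.

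The sequences of selected members are examples of promoters that the peaks lay on. Each is a stretch of the mm9 genome within a member, written 5′ to 3′ on the strand of its gene and outside annotated exons, with a consensus match or its reverse complement in capitals. Only the consensus named for a stretch is capitalized, and the lower-case letters can hold others. Exoc7 also holds a YY1 match, Smndc1 a ZBTB33 match and Junb TATAAA. For each consensus 1 holder that met these conditions is shown, using each gene once. It was chosen by fold enrichment, but not every member was considered for printing. The holder shown is therefore not always the strongest. For TGACGTCA the strongest holder had a fold enrichment of 5.83, and Ppm1a, which is shown, had 5.61. The stretches are from Exoc7 (ETS factors, CGGAAGT, chr11:116168079-116168175, minus strand), Reep4 (NRF1, GCGCNTGCG, chr14:70944991-70945089, plus), Junb (NF-Y, ATTGGC, chr8:87502634-87502729, minus), Slc22a5 (SP1, CCCCGCCCC, chr11:53705232-53705330, minus), Smndc1 (YY1, AANATGGC, chr19:53465088-53465185, minus), Rbpj (ZBTB33, CTCGCGAGA, chr5:53980497-53980595, plus), Ppm1a (the cAMP response element, TGACGTCA, chr12:73862017-73862114, plus) and Rictor (a sterol regulatory element, TCACNCCAC, chr15:6658493-6658591, plus, in an intron).
Exoc7: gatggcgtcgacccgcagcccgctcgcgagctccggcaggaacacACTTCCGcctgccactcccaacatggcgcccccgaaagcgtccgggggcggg
Reep4: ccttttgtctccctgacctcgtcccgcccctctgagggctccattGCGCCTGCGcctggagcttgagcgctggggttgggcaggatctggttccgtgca
Junb: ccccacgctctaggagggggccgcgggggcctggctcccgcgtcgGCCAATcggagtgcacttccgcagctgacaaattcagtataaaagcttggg
Slc22a5: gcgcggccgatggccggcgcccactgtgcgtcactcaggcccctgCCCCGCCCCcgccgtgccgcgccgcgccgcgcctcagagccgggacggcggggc
Smndc1: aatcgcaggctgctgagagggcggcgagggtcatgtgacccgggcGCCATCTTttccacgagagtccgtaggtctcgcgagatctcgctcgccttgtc
Rbpj: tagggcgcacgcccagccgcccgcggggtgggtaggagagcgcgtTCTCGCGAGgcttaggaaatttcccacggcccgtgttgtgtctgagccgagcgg
Ppm1a: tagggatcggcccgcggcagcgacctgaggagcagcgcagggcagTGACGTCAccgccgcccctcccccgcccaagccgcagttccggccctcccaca
Rictor: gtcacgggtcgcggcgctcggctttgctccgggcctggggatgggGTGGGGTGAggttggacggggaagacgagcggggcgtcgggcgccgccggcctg
Counted from the TSS, with negative positions upstream, the capitals are centred at -79 bp in Exoc7, -390 bp in Reep4 and -64 bp in Junb. In Rbpj they lie at -908 bp, near the far edge of the promoter window, and in Rictor at 159 bp. The Rbpj stretch, which holds the summit, is also in an intron. The Rbpj start used here lies 34436 bp inside the most upstream start annotated to the gene. For Exoc7 a further start lies 499 bp upstream of the one used, so its stretch is not upstream of every start.

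Members were moderate peaks of narrow spread. Fold enrichment, the ratio of the tag pileup at the summit to the local background of the input, had a median of 3.95 (quartiles 3.43 and 4.53) and ranged from 1.24 to 8.12. Pileup, the number of extended tags over the summit, had a median of 23 (quartiles 20 and 27), and 1305 members lay between 18 and 29. Fold enrichment was 5 or more in 247 members, 6 or more in 57 and below 3 in 168. The median −log10 q-value was 4.99. The median member was 366 bp long. Other promoter peaks were alike in fold enrichment, with a median of 3.90 at divergent FGF19-only peaks, 4.11 in the FGF19 list at the 473 common promoter peaks (divergent promoters included) and 3.90 at the 539 vehicle-only single-gene peaks. In pileup the common peaks stood higher, with a median of 28 against 23. These strength values come from the calls that chose the members and are descriptions only.

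**Figure D1:**
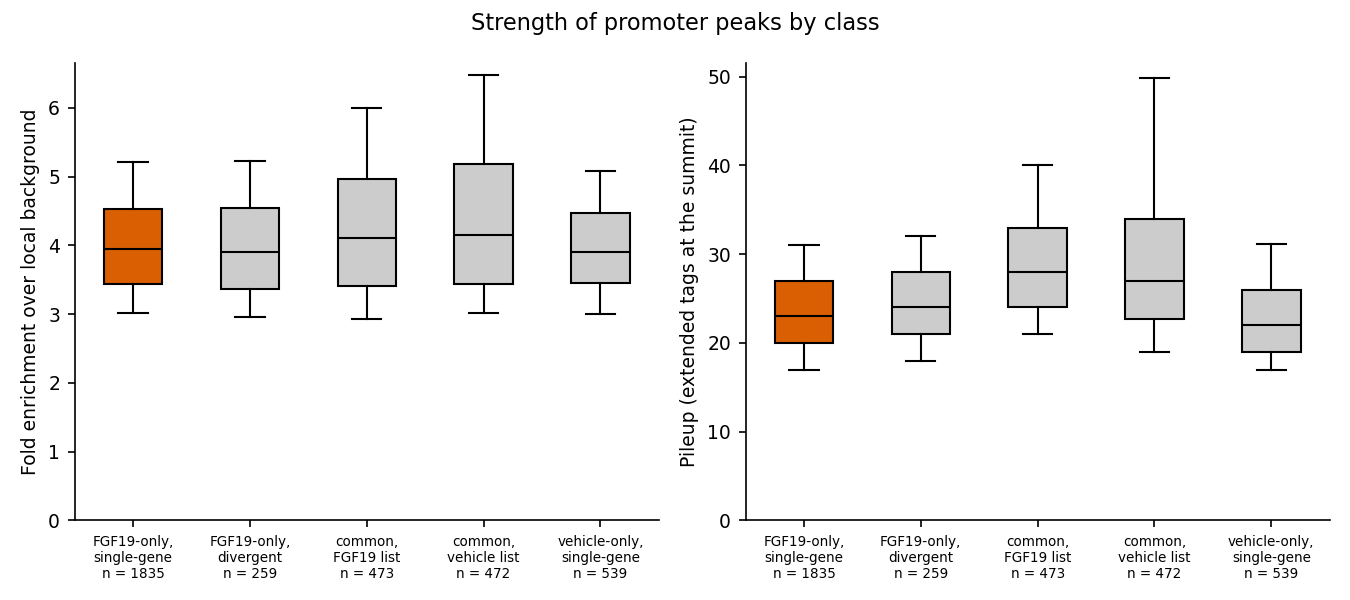
Fold enrichment (left) and pileup of extended tags at the summit (right) of promoter peaks by class, with n under each box. Boxes span the quartiles, lines inside them are medians and whiskers reach the percentiles 10 and 90. The members (orange) have a median fold enrichment of 3.95 and a median pileup of 23, and common peaks have the higher whiskers.

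The strongest member by fold enrichment was at Exoc7, which encodes a subunit of the exocyst, with 8.12 and a pileup of 24 (chr11:116167949-116168414). Fbxo7, an F-box subunit of SCF ubiquitin ligases, followed with 7.60, its summit at -12 bp from the TSS. Mnd1, a meiotic recombination factor, had 7.45 with the summit 99 bp downstream. These were peaks of average height over a low background, with pileups of 24, 25 and 23.

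Sirt1, which encodes an NAD-dependent deacetylase, had a fold enrichment of 7.45 and a pileup of 32 (chr10:62801305-62801947), 280 bp downstream of its nearest start. A further start annotated to Sirt1 lies 42672 bp upstream of that start. Sh3bgrl3 had 7.31, and 1500002O20Rik and Nacc1, a BTB-domain transcriptional repressor, both 7.18. Tmem33, an endoplasmic reticulum membrane protein, had 7.16 with the summit on the TSS itself. Reep4, which helps to shape the endoplasmic reticulum, had 7.06. These peaks spanned 337 to 643 bp.

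Junb, an AP-1 subunit, had the smallest q-value of all members. Its peak (chr8:87502286-87502891) had a fold enrichment of 7.01, a pileup of 44 and a −log10 q of 20.2, with the summit at -108 bp from the TSS. A further member lay inside Junb, 748 bp downstream of the TSS, with a fold enrichment of 3.20 and a pileup of 22. The nearest vehicle peak was 81085 bp away.

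Setd5, a SET-domain protein, was next in q-value, with −log10 q of 18, a fold enrichment of 6.26 and a pileup of 44. Ctnna3, which encodes alpha-T-catenin, had 17.8 with a summit at -568 bp. Cyp2e1, the ethanol-metabolizing cytochrome P450 of hepatocytes, had 16.4, a fold enrichment of 5.98 and a pileup of 42. At Cyp2e1 a vehicle peak lay 624 bp away, so this gene also had a called region with vehicle. Cnpy3, a chaperone of Toll-like receptors, had 16.3 and a fold enrichment of 6.74.

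Ordering by pileup gave other members. Gm10800 and Gm10801, neighbours on chromosome 2, had pileups of 442 and 343 with fold enrichments of 1.31 and 1.24 and a local background of 336 and 276. Gm10060 on chromosome 8 had a pileup of 58 and 2610005L07Rik on the same chromosome 51, with fold enrichments of 2.52 and 2.37. Mknk2, a kinase that acts on eIF4E, had a pileup of 44 with a fold enrichment of 2.86. 1700064H15Rik, Kpnb1 and Sacm1l each had 42. Kpnb1, which encodes importin beta 1, had a fold enrichment of 4.92 and a vehicle peak 241 bp away.

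Across the 1835 members the measures of strength were not interchangeable. Fold enrichment and pileup were nearly unrelated, with a Spearman coefficient of 0.012, while fold enrichment fell with local background (-0.648) and pileup rose with it (0.719). All members share 1 ChIP and 1 input library, and fold enrichment is itself made from pileup and background.

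The limits of the rule passed through a continuum. Just inside the 1 kb limit were Trio at 996 bp, Gm15756 at 994.5 bp and Hbp1 at 981 bp, and just outside it were Stk35 at 1005 bp, Nfib at 1008.5 bp and Cox16 at 1013.5 bp. The closest vehicle peaks to a member were 7 bp away at 5031439G07Rik, 25 bp at Btbd6 and 26 bp at Hspa5, an endoplasmic reticulum chaperone. At 5031439G07Rik the FGF19 peak had a fold enrichment of 5.13 and the vehicle peak beside it 4.76. At Odc1, which encodes the ornithine decarboxylase of polyamine synthesis, the FGF19 peak had 5.92 and a vehicle peak 55 bp away had 4.27. Promoter peaks left out because they shared a few bases with a vehicle peak were Smad2 and Gm12744 with 1 bp, Ddx17 with 12 bp, Ptpn2 with 20 bp and Spin1 with 37 bp. The weakest member by q-value was Tmub1, with −log10 q of 1.31.

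Such neighbours were few. A vehicle peak lay within 100 bp of 11 members, within 500 bp of 35 and within 1 kb of 42. The median distance from a member to the nearest vehicle peak was 238605 bp. In 14 members the p-value was weaker than the weakest in the vehicle list, so for these the lists were not cut at the same strength.

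The members were assigned to 1788 genes, 46 of which had more than 1 member and at most 3. The gene with 3 was Dleu2, a long non-coding RNA, with fold enrichments of 4.74, 3.37 and 3.19. Cebpb, a transcription factor of the acute phase and of hepatocyte metabolism, had a pair, at -10 bp and 359 bp from its TSS, with 4.63 and 3.06. Members of the same gene are not separate observations of that gene, and those of a close pair like this share a promoter. At some genes, Phc2 among them, the members lay at different starts (chr4:128331801-128332370 and chr4:128404844-128405333). A common promoter peak lay at 15 member genes as well, and a vehicle-only promoter peak at 33.

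Most members marked the start of a protein-coding transcript, in 1768 of 1835 or 96.3%. Among these, 134 (7.58%) were at an internal start, meaning over 1 kb inside the most upstream start annotated to the gene, as at Sirt1. At vehicle-only single-gene peaks this share was 6.55%. Which start a gene mainly uses was not examined, so an internal start in this sense may be the main one. Non-coding genes took 45 members (2.45%), among them 19 lincRNA, 5 miRNA and 3 snRNA genes. The strongest of these by fold enrichment was Gm9530, a lincRNA gene with 5.70. U6, a spliceosomal RNA gene, appeared at loci on chromosomes 9 and 10 with 4.82 and 5.13. Mir210, a hypoxia-responsive microRNA, had 4.52 with the summit at -464 bp from the annotated hairpin. In all, 201 members (11.0%, 95% interval 9.61 to 12.5) were nearest to a non-coding or internal start or to a non-coding transcript of a coding gene.

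Summits clustered tightly around the TSS. They lay within 100 bp of it in 44.5% of members, within 250 bp in 80.5% and within 500 bp in 94.1%. In 947 members (51.6%, 95% interval 49.3 to 53.9) the summit was downstream, against 45.3% (41.1 to 49.5) of vehicle-only single-gene peaks and 45% (40.6 to 49.5) of common promoter peaks. Both intervals overlap that of the members slightly. The fullest bin of members was the first 100 bp downstream, with 444 summits, compared with 368 in the 100 bp upstream. Summits lay in exons in 48.9% of members, in introns in 19.5% and outside transcripts in 31.7%. The tags were extended to 260 bp with FGF19 and 240 bp with vehicle.

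**Figure D2:**
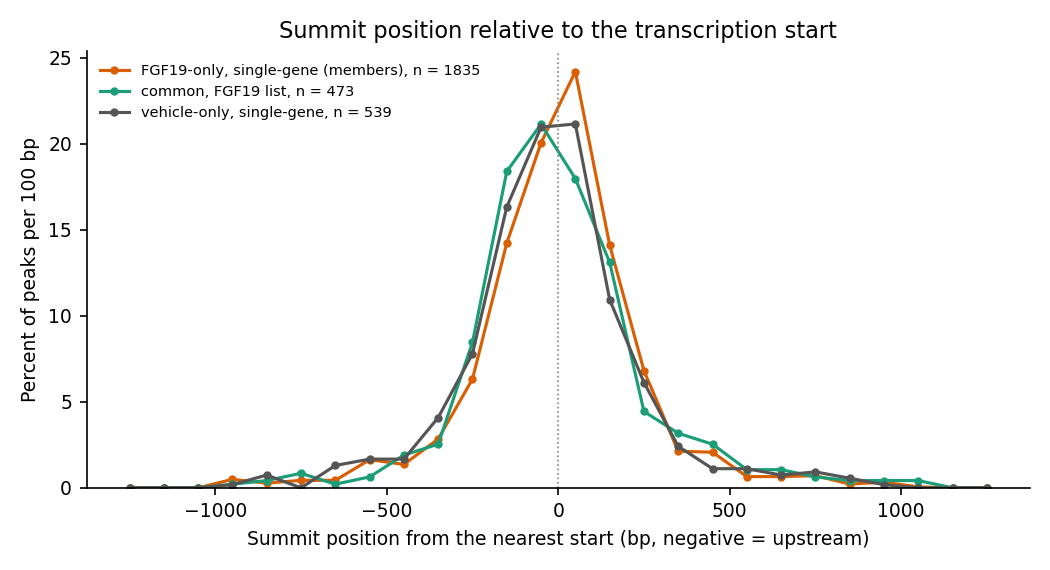
Position of the summit relative to the nearest start (x axis, bp, negative upstream) as the percent of peaks in each 100 bp bin (y axis), for members, common promoter peaks of the FGF19 list and vehicle-only single-gene peaks. All 3 curves peak within 100 bp of the start, and the members' highest bin is just downstream, with 24.2% of summits.

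Members lay on GC-rich sequence. Within 100 bp of the summit the median GC content was 70.6% (quartiles 65.2 and 74.6), against 66.2% (59.7 and 71.6) at vehicle-only single-gene peaks and 68.7% (63.7 and 73.6) at common promoter peaks. All 20521 single-gene protein-coding promoters, centred on the start, had a median of 57.7%. The ratio of observed to expected CpG was 0.897 in members and 0.845 at vehicle-only single-gene peaks. With CpG-rich defined as at least 55% GC and an observed to expected CpG ratio of at least 0.65, 87.4% of members were CpG-rich (85.8 to 88.8). This compares with 72.9% of vehicle-only single-gene peaks (69.0 to 76.5), 82.7% of common promoter peaks (79.0 to 85.8) and 39.8% of all single-gene promoters. The intervals of members and vehicle-only peaks do not overlap, nor do those of members and all promoters. With 1 library per group, treatment and library cannot be told apart in this difference.

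Exact matches to known promoter consensus sequences, on both strands, were searched for up to 100 bp from the summit. The shares were set beside other peak classes and beside the 6069 CpG-rich promoters without any peak, read at the same distances from the TSS as the members' summits. Beyond the CpG-rich cutoffs these promoters were not matched to the members in GC content, and 87.4% of members met the cutoffs. Whether GC content accounts for differences in these shares was not tested. The SP1 consensus was the most frequent, in 305 members or 16.6% (15.0 to 18.4), against 13% of CpG-rich promoters without a peak. NF-Y, which binds CCAAT boxes, followed with 11.8% (10.4 to 13.3) against 8.74%, and NRF1, a regulator of nuclear genes for mitochondria, with 10.5% (9.20 to 12.0) against 7.23%. At vehicle-only single-gene peaks the shares were 17.3% (14.3 to 20.7) for SP1, 13.4% (10.7 to 16.5) for NF-Y and 10.9% (8.58 to 13.9) for NRF1, and these intervals overlap those of the members. The YY1 consensus occurred in 6.81% of members (5.75 to 8.06), above the 4.30% of CpG-rich promoters without a peak.

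YY1 and ZBTB33 were less frequent in members than in common peaks. The YY1 share was 13.5% (10.7 to 16.9) at common promoter peaks and 9.83% (7.60 to 12.6) at vehicle-only single-gene peaks, so the interval of the members lay below that of the common peaks. ZBTB33, also named Kaiso, had its consensus in 1.42% of members (0.969 to 2.07) and in 4.02% of common promoter peaks (2.59 to 6.19). At vehicle-only single-gene peaks it was 2.97% (1.84 to 4.77), which overlaps the interval of the members, and at CpG-rich promoters without a peak 0.461%. Common peaks, unlike the members, include divergent promoters.

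Other sequences were near or below their background. The ETS consensus occurred in 6.32% of members (5.30 to 7.53) against 6.26% of CpG-rich promoters without a peak, and in 12.0% (8.56 to 16.5) of divergent FGF19-only peaks. That class is shown because ETS sites are known from bidirectional promoters, and its interval lies above that of the members. The USF consensus, ACGTGAC, occurred in 3.27% of members against 2.73%, and TGACGTCA in 2.13% (1.56 to 2.89) against 1.60%. TACANNTCC, whose logo was ascribed to RUNX2, occurred in 2.18% (1.60 to 2.95) against 2.51%. AGGTCA, the core element of nuclear receptors, occurred in 5.99% (5.0 to 7.18) against 6.98%. The TATA box, TATAAA, was found in 33 members (1.80%, 1.28 to 2.51) against 3.41%, and runs of 8 A in 1.20% (0.793 to 1.81) against 3.02%. The sterol regulatory element TCACNCCAC was found in 9 members (0.490%, 0.258 to 0.930) against 0.668%. It is a different sequence from AANATGGC, which the paper also links to SREBP-2. Rictor and Klhl12 were among those 9.

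**Figure D3:**
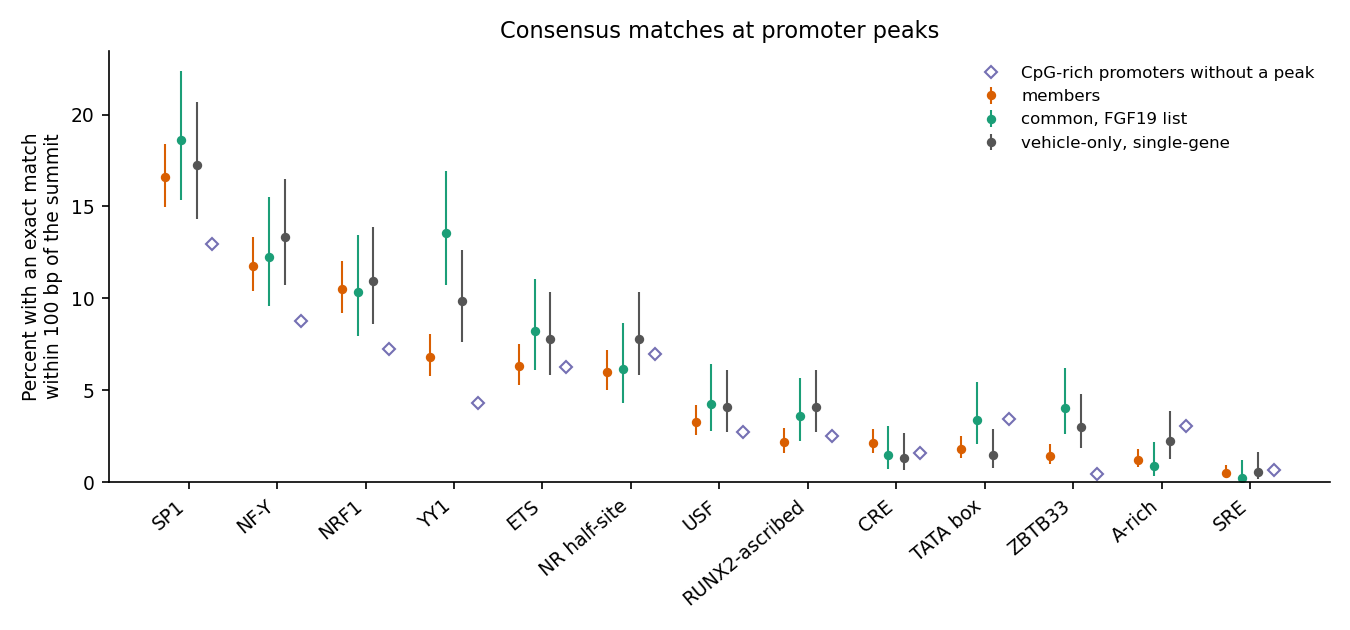
Percent of peaks with an exact consensus match within 100 bp of the summit (y axis) for 13 sequences (x axis). Circles with bars are members, common promoter peaks of the FGF19 list and vehicle-only single-gene peaks with Wilson 95% intervals, and open diamonds are CpG-rich promoters without a peak read at the members' distances from the start. The intervals of the members lie above the diamonds for SP1, NF-Y, NRF1, YY1 and ZBTB33, and below those of common peaks for YY1 and ZBTB33. Centred on the start, promoters without a peak (not drawn) held NF-Y in 11.2%, inside the interval of the members.

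In 884 members (48.2%) none of the 13 sequences was matched, 663 held 1 of them and 288 held 2 or more. Positions relative to the TSS differed between sequences. The median SP1 match lay at -39 bp and the median NF-Y match at -76 bp, while the median YY1 match lay 18.5 bp downstream. Of the 33 members with TATAAA, 8 had it 20 to 40 bp upstream of the TSS. The ETS share did not follow fold enrichment in order. From the lowest to the highest fold enrichment, in groups of 458 or 459 members, it was 9.15% (6.84 to 12.1), 4.58% (3.01 to 6.89), 8.08% (5.92 to 10.9) and 3.49% (2.16 to 5.59).

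Seen from the genes, 1742 of the 20521 single-gene protein-coding promoters held a member, which is 8.49%. For common peaks the figure was 1.95% and for vehicle-only peaks 2.66%. Unlike the members, these 2 kinds of peak include those at divergent promoters, here and in the lists below. In the lists their counts are over all single-gene promoters of a list. Several lists lie above 1.95% and 2.66% for these kinds as well, so a high share is not particular to the members. Among the 8172 CpG-rich promoters 17.5% held a member, and among the 12349 others 2.52%. These percentages are the background for the lists below, and since the rule used the peak calls, the shares are read as descriptions. Most genes of the lists have CpG-rich promoters, so the share over the CpG-rich genes of a list is given first, beside 17.5%. The Wilson intervals treat genes as separate, cover counting error only and are not a test of a list.

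Insulin, AMPK and mTOR signalling, the pathways that couple hepatic metabolism to hormones and energy state, had a member at 15 of 40 CpG-rich promoters (37.5%, 24.2 to 53.0) and at 16 of 47 single-gene promoters in all. Rictor, the defining subunit of mTORC2, had a fold enrichment of 4.55 and a pileup of 21. Prkag2 and Prkab1, regulatory subunits of AMPK, had 4.41 and 4.2. The AMPK subunits Prkab2, Prkaa1 and Prkag1 were also members, with 4.02, 3.19 and 2.53. Common peaks were at Akt1s1 and Sik1, and vehicle-only peaks at Crtc2, Phlpp2 and Ppp2r1a.

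Endoplasmic reticulum stress and ER-associated degradation, which fold secretory proteins and remove those that fail, had a member at 13 of 35 CpG-rich promoters (37.1%, 23.2 to 53.7) and at 15 of 45 in all. Nploc4, a cofactor of the p97 ATPase, had a fold enrichment of 6.33, and Herpud1, a component of the ER ubiquitin ligase complex, 5.74. Hspa5, the chaperone BiP, held a pair of members with 5.13 and 4.08. Xbp1, a transcription factor of the unfolded protein response, had 4.78. Common peaks lay at 6 of these 45, beside 1.95% of all single-gene promoters, and vehicle-only peaks at 2 of them, beside 2.66%.

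Cullin-RING ubiquitin ligases and the COP9 signalosome that regulates them had a member at 13 of 45 CpG-rich promoters (28.9%, 17.7 to 43.4) and at 17 of 54 in all. Fbxo7 led with 7.60, followed by Klhl12, a cullin-3 adaptor, with 4.97 and Ube2m, the NEDD8-conjugating enzyme, with 4.77. Members also lay at the cullin genes Cul1, Cul3, Cul4b, Cul5 and Cul7, between 3.19 and 4.55. Common peaks were at Skp1a, Ddb2 and Fbxo11, and vehicle-only peaks at Fbxw5, Fbxw8 and Cand1.

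Nuclear pore and nuclear transport genes had a member at 16 of 49 CpG-rich promoters (32.7%, 21.2 to 46.6). Xpot, the exporter of tRNA, had 5.49, Ranbp3, a cofactor of nuclear export, 5.14 and Kpnb1 4.92. Common peaks were at 6 of the 56 single-gene promoters of this list, including the exporter Xpo1, beside 1.95% of all single-gene promoters. Vehicle-only peaks were at 4 of the 56, including Kpnb1, beside 2.66%.

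Genes of promoter-binding transcription factors, for several of which a consensus was counted above, had a member at 8 of 18 CpG-rich promoters (44.4%, 24.6 to 66.3) and at 10 of 25 in all. Usf2 had a pair of members with 5.48 and 3.89, Sp4 a pair with 5.27 and 2.53, and Nfyc 4.50. Sp1, Sp3 and Yy1 had 4.16, 3.61 and 3.51. Common peaks lay at Yy1 and Elf1, and vehicle-only peaks at Nrf1, Nfyb and Nfyc, so Yy1 and Nfyc had peaks of more than 1 kind.

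Hypoxia response genes had a member at 8 of 19 CpG-rich promoters (42.1%, 23.1 to 63.7) and at 10 of 31 in all. Ndrg1 had 5.52, Egln1, a prolyl hydroxylase that senses oxygen, 4.52 and Kdm3a, a histone demethylase, 4.17. Common peaks of this list lay at Hif1an and Usp20. Vehicle-only peaks lay at 3 of the 31 genes, Epas1, Bnip3l and Ddit4, beside 2.66% of all single-gene promoters, and Epas1 held a member too. Circadian clock genes had a member at 7 of 23 (30.4%, 15.6 to 50.9), led by the PAR bZIP factor Hlf with 5.42, the period gene Per3 with 4.11 and Tef with 3.74. Vehicle-only peaks lay at Arntl, Per2 and Cry2, and common peaks at Cry1 and at Tef, which thus had both kinds.

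The remaining lists were near the 17.5% of CpG-rich promoters. Cyclins, cyclin-dependent kinases and the anaphase-promoting complex had 10 of 48 (20.8%, 11.7 to 34.3), with E2f3 at 5.37, Cdkn1b at 4.62 and Ccnh at 4.06. Vesicle coats had 6 of 36 (16.7%, 7.87 to 31.9), with the clathrin adaptor genes Ap1m1 at 5.70, Ap3d1 at 4.81 and Ap2a1 at 4.27. Mitochondrial protein import and dynamics had 5 of 31 (16.1%, 7.09 to 32.6), with the fission factor Mff at 4.66, Oma1 at 3.72 and Pam16 at 3.39. Peroxisome biogenesis had 2 of 9 (22.2%), and Pex6 and Pex7 had 4.52 and 4.13. Hepatocyte-enriched transcription factors had 3 of 12 (25%, 8.89 to 53.2), which were Xbp1, Cebpb and Ppara with a fold enrichment of 4.08. Common peaks lay at 2 genes of this list, Ppara among them, which thus had both kinds. The only vehicle-only peak of the list was at Nr0b2, which encodes SHP. Some genes, Xbp1 and Btrc among them, count in more than 1 list.

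**Figure D4:**
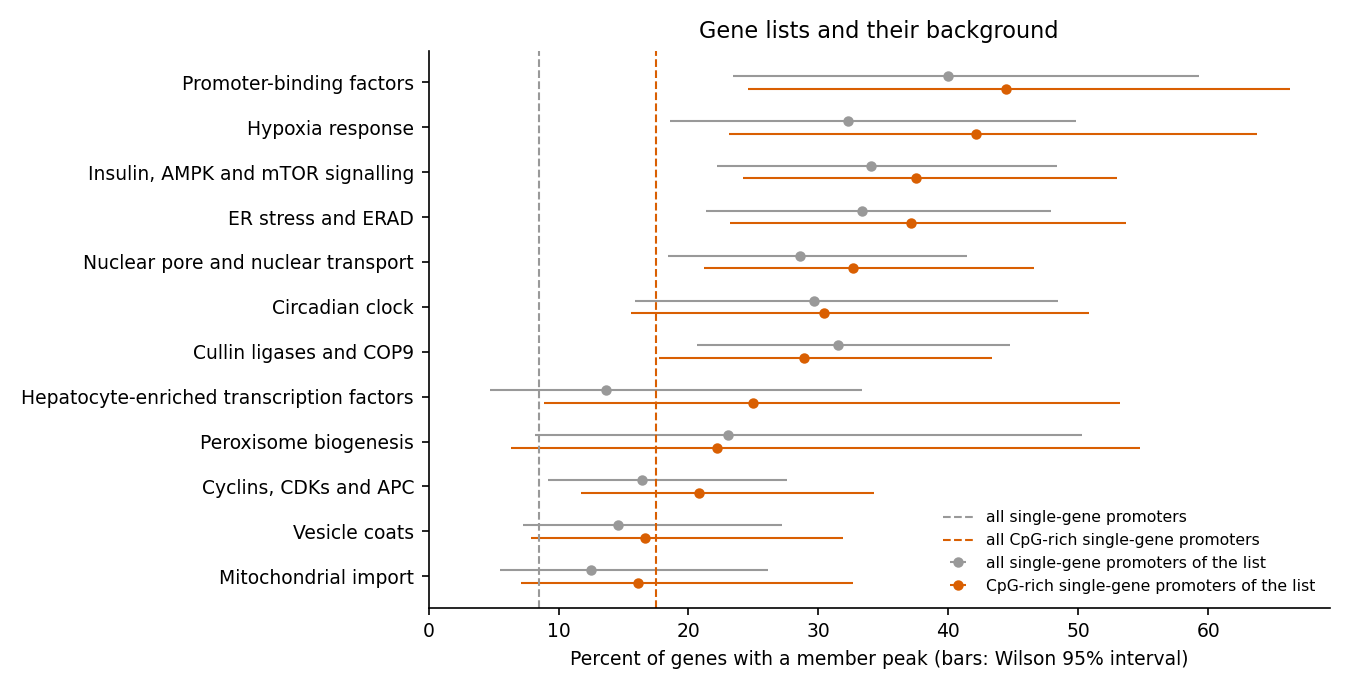
Percent of the genes of each list with a member peak (x axis) over all single-gene promoters (grey) and over CpG-rich ones (orange), with Wilson 95% intervals. Dashed lines mark the shares over all genes, 8.49% and 17.5%. The orange intervals of promoter-binding factors, hypoxia, insulin signalling, ER stress, nuclear transport and cullin ligases start above the orange line, and those of the other lists include it.

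Members were uneven along the genome. On the autosomes between 5.77% (chromosome 7) and 11.1% (chromosome 12) of single-gene promoters held a member. On chromosome X it was 15 of 891 (1.68%, 1.02 to 2.76). Among CpG-rich promoters the share was 4.41% (2.41 to 7.92) on chromosome X and 17.9% (17.1 to 18.7) on the autosomes. Chromosome X was also low for common peaks, with 0.224% against 2.03% on autosomes, and for vehicle-only peaks, with 0.449% against 2.76%. All mice were male and carry a single X. The members on chromosome X had a median fold enrichment of 4.19. Only peaks that passed the q-value cutoff enter this median, and over all members fold enrichment was higher where local background was low (-0.648). The median therefore does not show how strong SHP binding was on this chromosome. Olfactory and vomeronasal receptor genes, a family chosen after the values were seen, held 0 members at 1434 promoters, and a count of 0, taken to allow 3, limits the share to 0.209%. Without them the share on chromosome 7, where many of them lie, was 7.24%.

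**Figure D5:**
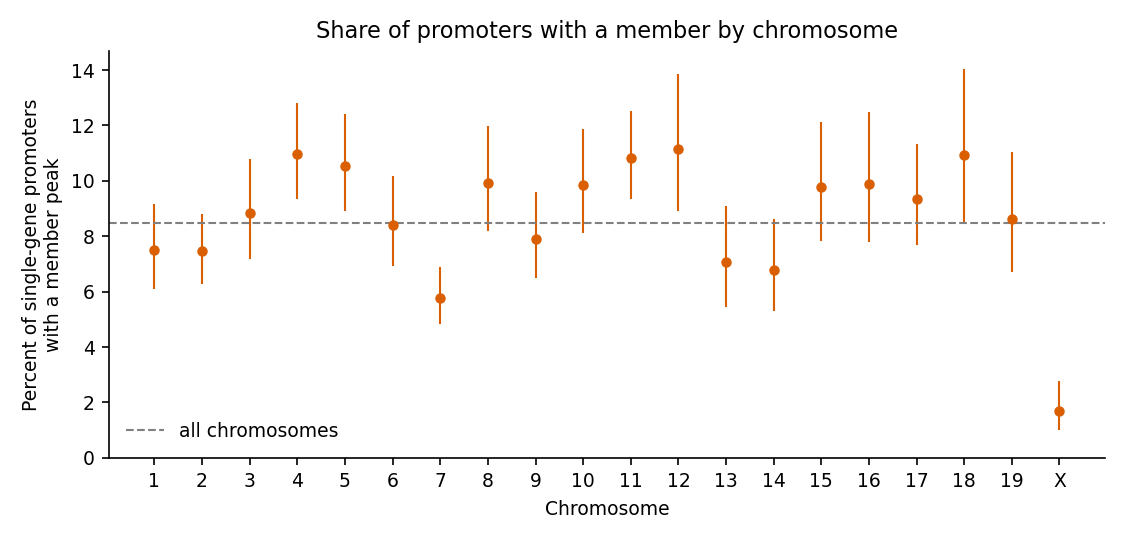
Percent of single-gene protein-coding promoters with a member peak (y axis) on each chromosome (x axis), with Wilson 95% intervals. The dashed line is the share over all chromosomes, 8.49%. Chromosome X, at 1.68%, has an interval below that of every autosome.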

How the data were processed

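SHP ChIP and input libraries of liver from vehicle- and FGF19-treated mice were sequenced by the authors, aligned to mm9 with Bowtie 1.0.0 with up to 2 mismatches, and peaks of each group were called over the matching input by MACS2 2.0.10.20130501 at a q-value cutoff of 0.05, keeping 1 tag per position. The deposited lists give, for each peak, the pileup signal at the summit, the fold enrichment ratio over the local background, and the −log10 p-value and q-value. CASAVA 1.8.2 is also named in the submitters' processing notes. Lists were called on 1 library per group, pooled from samples of 3 mice, so replicates cannot be compared.

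Starting from these lists, peaks sharing at least 1 bp were called common. Starts were taken from 95414 transcripts of GENCODE M1, whose build is that of the peaks, and 51694 of them, of protein-coding type, decided divergent promoters. A peak was named after the nearest protein-coding start within 1 kb, otherwise after the nearest transcript. The 10 members with the largest fold enrichment, the 10 with the largest pileup, the 5 with the smallest q-value and the leading 3 in each gene list were named. So were the holder shown for each printed consensus and those nearest to the limits of the rule. Other genes named in the text were chosen after their values were seen. A gene under this rule is not reported here. The members, the gene lists and the consensus sequences were chosen with earlier results of these data known, and are not independent evidence. Local background was worked out as (pileup + 1) / fold enrichment − 1. The share of promoters without a peak was averaged over the members' summit positions. Wilson intervals (95%) reflect counting error alone, and depth limits which peaks could be called. The functions gave the planted answer in 5 of 5 checks on constructed data. Alternatives covered the distance limits, the peak position, the q-value, the shared distance, the annotation and the window. The software was matplotlib 3.10.9, samtools 1.23.1, pyfaidx 0.9.0.4, scipy 1.17.1, pandas 2.3.3, numpy 2.4.6 and Python 3.11.15. Peaks on the mitochondrial chromosome were left out, and gene expression was not analysed here.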

Additional observations from a re-analysis of the deposited data

Results flagged for a closer look

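The FGF19 list held 7 peaks on the mitochondrial chromosome and the vehicle list 0, in regions outside the rule for members, with pileups between 459 and 520 and fold enrichments between 1.25 and 1.5, and this signal is listed because it lies in data that no comparison above used.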

How the results depend on the processing

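The number of members stayed between 1558 (q-value below 0.001) and 1900 (centre within 2 kb of a start) under all 10 alternatives run for it, and taking every transcript of a protein-coding gene as coding, an alternative added after seeing the data, gave 1821. The share of members among FGF19-only promoter peaks, the median pileup and the share of summits downstream of the TSS stayed within their intervals under all alternatives run for them. The median fold enrichment moved to 4.12 with q-values below 0.001, which removes weak peaks. A window of 200 bp to each side of the summit moved the median GC content to 69.6% and the CpG ratio to 0.879. The share of single-gene promoters with a member was 7.26% with q-values below 0.001, and, in alternatives added after seeing the data, 17.5% over CpG-rich promoters and 9.13% without olfactory and vomeronasal receptor genes. With q-values below 0.001, added after seeing the data, the share of the circadian list fell from 29.6% to 18.5% of single-gene promoters and that of mitochondrial import from 12.5% to 7.5%, and the shares of all 12 lists stayed within their intervals. Shares with a consensus follow the length searched. Within 50 bp of the summit they were 8.12% for SP1, 3.71% for YY1, 5.07% for NRF1, 0.436% for ZBTB33, 1.14% for TACANNTCC, 4.03% for ETS, 1.74% for USF, 5.56% for NF-Y, 0.381% for runs of A, 0.926% for TGACGTCA, 0.763% for TATAAA, 2.83% for AGGTCA and 0.163% for the sterol regulatory element. Within 200 bp they were 31.4% for SP1, 12.3% for YY1, 18.1% for NRF1, 4.36% for TACANNTCC, 11.4% for ETS, 6.27% for USF, 19.7% for NF-Y, 2.78% for runs of A, 4.09% for TGACGTCA, 4.03% for TATAAA, 13% for AGGTCA and 1.31% for the sterol regulatory element. With 1 library per group no replicate could be left out, and a deeper library could call further peaks in either group. No paired analysis was possible because each group is 1 library and no test between groups was run.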

Other observations

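The member upstream of Ctnna3 contained a sequence that resembles the box B of tRNA genes, the internal promoter element of RNA polymerase III. A search for its core GGTTCGANN, added after the sequence was seen, found it on either strand within 100 bp of the summit in 23 members (1.25%, 95% interval 0.837 to 1.87). All single-gene promoters, centred on the start, held it in 0.565% (0.472 to 0.678). These promoters were not matched to the members in position or composition, since 39.8% of them were CpG-rich against 87.4% of members. Ctnna3, where the sequence was first seen, is counted among the 23. Beside Ctnna3, with a fold enrichment of 6.78, the strongest members with this sequence were at Pds5b, which regulates cohesin, with 6.36, and at Ncoa1, a nuclear receptor coactivator, with 5.42. Sacm1l, Fyn and Idi1 followed with 4.92, 4.87 and 4.51. The share was 1.12% (0.544 to 2.29) at vehicle-only promoter peaks, and 4.48% (3.07 to 6.48) at the 581 FGF19 peaks away from promoters against 1.22% (0.521 to 2.82) of the 411 such vehicle peaks. At the 214 of those 581 that were common to both lists it was 2.80% (1.29 to 5.98). Whether these matches lie in tRNA genes was not tested.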
